A study of Mus musculus with 2 samples.

Results

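The genes described here encode the constant parts of the T cell receptor (TCR), together with 1 variable segment. They were taken by name from the count tables of both libraries: the α constant gene Trac, the β constant genes Trbc1 and Trbc2, the δ constant gene Trdc, the γ constant genes Tcrg-C1, Tcrg-C2 and Tcrg-C4, and the δ variable segment Trdv4. They are 8 of the 26981 genes in the tables and 8 of the 185 TCR gene segments listed there, and the column of the TCRβ antibody was read beside them. The libraries held CD45+ cells, that is, leukocytes, enriched with magnetic beads from visceral adipose tissue of wildtype C57BL/6 mice at 15 weeks of age. The mice drank normal water (NW) or received antibiotics (ABX), with 1 library for each condition. The labels of these libraries name no antibiotic, and the number of mice pooled in each library is not given in the sources used here. RNA was read with the BD Rhapsody whole transcriptome assay, and surface proteins were read with antibodies that carry a sequence tag.

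A TCR is a pair of chains, either α with β or γ with δ, and it reaches the cell surface only together with the CD3 proteins. The variable part is built in a developing T cell by joining V and J segments in α and γ chains, and V, D and J segments in β and δ chains, while the constant part is spliced on behind it. A constant gene can also be transcribed before or without a complete joining, so its RNA alone does not show that a receptor chain is made. Natural killer (NK) cells and group 2 innate lymphoid cells (ILC2) are lymphocytes without a TCR on their surface, and γδ T cells are tissue-resident T cells that are known for rapid cytokine release in adipose tissue.

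After cells with at least 500 gene UMIs (unique molecular identifiers, 1 for each captured RNA molecule), at least 200 genes and at most 25% mitochondrial UMIs had been kept, 12474 NW cells and 12724 ABX cells remained. The median was 5092 gene UMIs per cell in NW and 3845.5 in ABX. Of these cells, 2427 in NW and 2959 in ABX fell into the T, NK and ILC2 classes, which were clustered without any TCR segment and without the TCRβ, CD3 and NK-1.1 antibodies. In NW and ABX, in that order, there were 595 and 490 CD4 T-like cells, 269 and 83 Treg-like cells, 147 and 231 CD8 T-like cells, 292 and 425 γδ T-like cells, 280 and 332 NK-like cells and 637 and 1059 ILC2-like cells. A cluster led by NK genes was split, and its cells with a UMI of Cd3d, Cd3e or Cd3g, 160 in NW and 222 in ABX, are called the CD3+ NK cluster. Resting T-like cells numbered 47 in NW and 117 in ABX, too few in NW for a ratio. By the same split, NK-like and ILC2-like cells carried no UMI of these 3 CD3 genes, so their CD3 levels of 0 are no finding.

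Classes were named from marker lists without TCR genes, so the marker counts given here describe the names and do not test them. In NK-like cells 10 of 10 NK markers were seen in at least 10% of cells of both libraries, and in ILC2-like cells 10 of 12 ILC2 markers in NW and 9 of 12 in ABX. The γδ T-like cluster was named from genes such as Cd163l1 and Sox13, and 6 of its 10 markers reached that share in NW and 7 in ABX. Its label went partly against the data, since it also held cells with Trac RNA and without Trdc RNA, which are described with the δ chain. ILC2-like cells came from a pair of clusters whose balance differed: before the CD3 split a cluster led by Rnf128, Calca and Arg1 held 356 NW and 937 ABX cells, and a cluster led by Prnp, Hes1 and Csf2 held 424 and 325. RNA of other cell types was present throughout. Between 81.1 and 88.4% of the cells of a class in NW, and between 62.4 and 78.4% in ABX, held a UMI of C1qa, C1qb, Cd79a, Cd79b or Lyz2, and of 7 macrophage markers 3 to 5 were seen in at least 10% of cells of each class. The 2 libraries shared 196 barcodes among the cells kept, of which 8 lay in these classes.

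With 1 library for each condition there was no replicate, so no difference between NW and ABX was tested. Levels are counts per 1e6 gene UMIs of a class (CPM) with an exact 95% Poisson interval, shares of cells carry an exact Clopper-Pearson interval, and ABX to NW ratios an exact interval for a ratio of Poisson rates. All of these cover counting error only, not the spread between mice. Intervals on UMIs also take the UMIs of the same cell as independent, so they leave out the spread between cells. They are too narrow where few cells hold most UMIs of a gene. Macrophage-like cells (5851 and 5164) and B cell-like cells (374 and 939), which have no TCR, gave the background. How much of it was free RNA, and how much came from cells captured together (doublets), was not tested. Their median depths were 5715 and 4104 UMIs and 4076 and 3888 UMIs, against class medians from 2682 to 3937 in the T, NK and ILC2 classes.

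**Figure D1:**
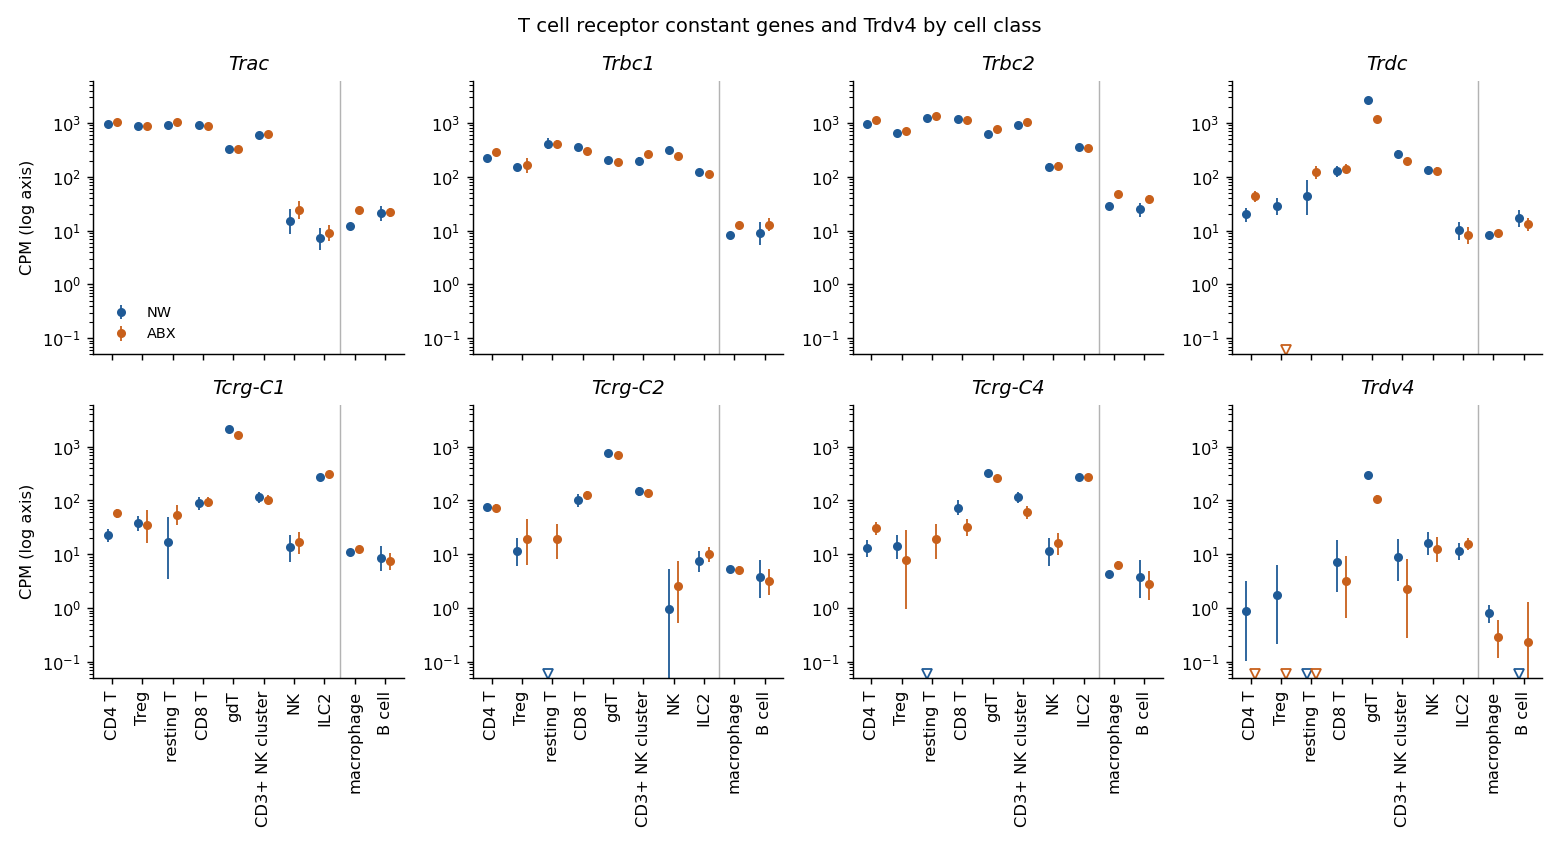
Level of the 8 genes in each cell class, in CPM on a log axis, with the exact 95% Poisson interval as bars and 1 point per library (NW and ABX). The γδ T-like class is written gdT here and in the other plots. Triangles at the bottom mark 0 UMIs, and the vertical line separates the macrophage-like and B cell-like classes, which give the background. Trac drops to the background in the NK-like and ILC2-like cells left after the CD3 split, whereas Trbc1 and Trbc2 stay above it.

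Trac, the single constant gene of the α chain (GRCm38 chr14:54220521-54224206, plus strand), was high in αβ T cell classes and low in NK-like and ILC2-like cells. In CD4 T-like cells it reached 946 CPM (906 to 986) in NW and 1061 CPM (1014 to 1109) in ABX. CD8 T-like, resting T-like and Treg-like cells followed with 934, 897 and 883 CPM in NW, and the intervals of neighbours in this order overlapped. The CD3+ NK cluster, at 584 and 618 CPM, and γδ T-like cells, at 323 and 332 CPM, lay apart from them and from each other. NK-like cells had 15.3 CPM (8.77 to 24.9) in NW and 24.4 CPM (16.4 to 35.1) in ABX. ILC2-like cells had 7.27 CPM (4.44 to 11.2) and 9.09 CPM (6.29 to 12.7). A Trac UMI was seen in 86.7% of CD4 T-like cells in NW and 86.5% in ABX. The shares of 2.51 and 2.27% in ILC2-like cells lay below those of macrophage-like cells, 4.68 and 4.98%, and are read as background. The shares in NK-like cells were 4.64% (2.49 to 7.81%) and 6.93% (4.44 to 10.2%), and those of B cell-like cells were 6.15% (3.94 to 9.08%) and 3.83% (2.70 to 5.27%). The intervals overlapped in each library, although the NK-like share in ABX was above both background classes.

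Trbc1 and Trbc2, the constant genes of the β chain, lie 6.85 kb apart on the plus strand of chromosome 6, at chr6:41538218-41539881 and chr6:41546730-41548352 in GRCm38. Their first exons of 375 bases were identical except for 1 base in the GENCODE transcripts of GRCm38. Of all stretches of 150 bases in the Trbc1 transcript, 18.7% were also in Trbc2, and of the stretches in its last exon none was. How the counting treated reads that fit both genes is not given in the sources used here, so the split between Trbc1 and Trbc2 is uncertain where reads fell in the shared part.

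RNA of the β constant genes was present in every T, NK and ILC2 class, those with low Trac included. Trbc2 reached 1174 and 1111 CPM in CD8 T-like cells and 937 (898 to 977) and 1145 CPM (1097 to 1194) in CD4 T-like cells. In ILC2-like cells it was at 351 CPM (329 to 374) in NW and 345 CPM (327 to 365) in ABX, and in NK-like cells at 152 and 159 CPM. All of these lay above the 28.9 and 46.8 CPM of macrophage-like cells and the 24.9 and 38.6 CPM of B cell-like cells. Trbc2 UMIs were seen in 60.4% of ILC2-like cells in NW and 58.6% in ABX, against 10.1 and 11.9% of macrophage-like cells at greater depth. The share in NK-like cells was 28.9 and 26.8%.

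Trbc1 followed another order of classes. In NK-like cells it stood at 316 CPM (283 to 352) in NW and 244 CPM (217 to 274) in ABX, a level that overlapped that of CD8 T-like cells in NW (357 CPM, 309 to 410) and lay above the 222 CPM of CD4 T-like cells there. In ABX it lay below the 303 CPM of CD8 T-like cells and the 293 CPM of CD4 T-like cells. ILC2-like cells had 125 and 112 CPM, and the background was 8.17 and 12.6 CPM in macrophage-like cells. A Trbc1 UMI was found in 59.3% of NK-like cells in NW and 51.2% in ABX. With each cell thinned to 1000 UMIs the shares were 28.8 and 22.8%. The corresponding unthinned shares were 34.8 and 39.6% in CD4 T-like cells, 30.1 and 24.7% in ILC2-like cells and 3.26 and 3.51% in macrophage-like cells.

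The share of Trbc1 among all Trbc UMIs set NK-like cells apart. It was 67.5% in NW (63.1 to 71.6%, 330 of 489 UMIs) and 60.5% in ABX (56.0 to 64.9%, 290 of 479 UMIs). In each of the other T and ILC2 classes it lay between 18.1 and 26.2% in both libraries, and macrophage-like cells had 22.1 and 21.2%. ILC2-like cells, at 26.2 and 24.5%, were thus near the T cell classes in this share. These are shares of UMIs, not levels per length, and the transcripts of 737 bases (Trbc1) and 692 bases (Trbc2) are of similar length. Leaving the CD3+ cells of the NK cluster in the class lowered the share to 37.7% in NW and 31.7% in ABX.

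The balance was also looked at cell by cell, in cells with at least 4 Trbc UMIs, where a gene with at least 90% of them was called dominant. Of 41 such NK-like cells in NW 56.1% were mixed and 31.7% were dominated by Trbc1. Of 37 in ABX 59.5% were mixed and 16.2% were dominated by Trbc1. In the other classes Trbc1 dominated 0 to 7.06% of cells. Mixed cells made up 40.7 and 43.8% of CD4 T-like cells and 56.3 and 52.1% of ILC2-like cells.

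**Figure D2:**
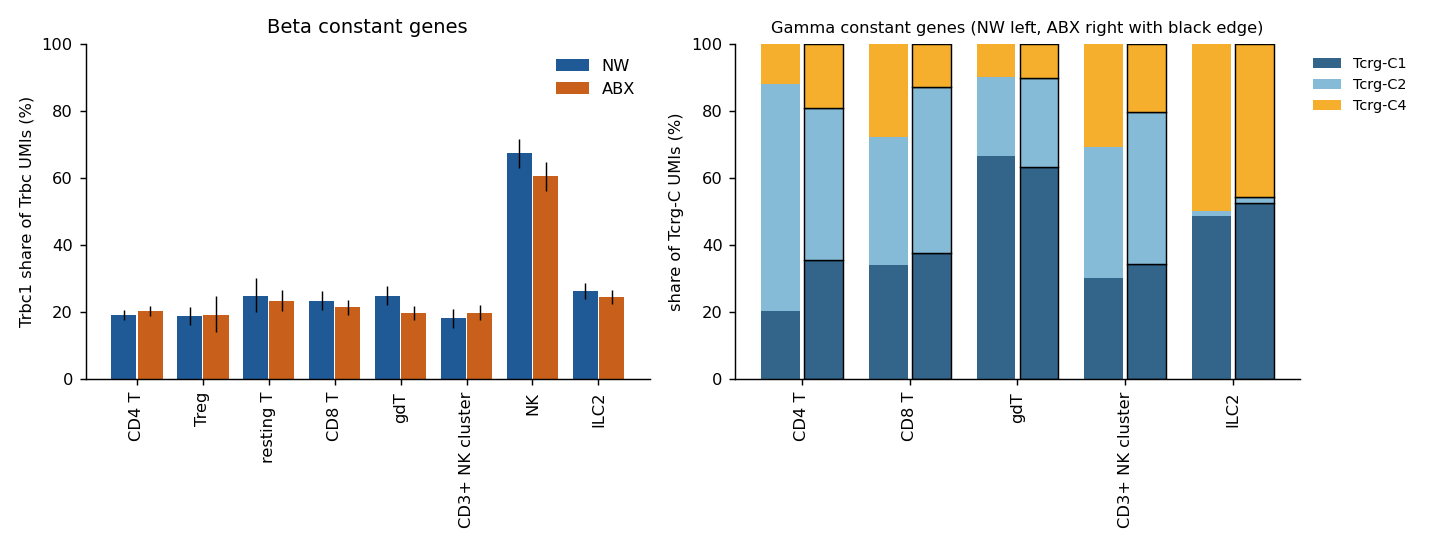
Share of UMIs by gene within the β and γ constant genes, in percent of the Trbc UMIs and of the Tcrg-C UMIs of a class, by cell class and library. Bars are exact 95% binomial intervals in the β panel, and the γ panel holds only classes with at least 50 Tcrg-C UMIs in both libraries. NK-like cells are the class above 60% Trbc1, and ILC2-like cells have almost no Tcrg-C2.

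The γ constant genes lie in 1 cluster on chromosome 13: Tcrg-C1 at chr13:19214103-19217024 and Tcrg-C4 at chr13:19344558-19352756 on the plus strand, and Tcrg-C2 at chr13:19304649-19307551 on the minus strand. Over a first exon of 330 bases Tcrg-C1 differed from Tcrg-C2 at 9 positions and from Tcrg-C4 at 59. Stretches of 50 bases in the last exon of Tcrg-C1 were found in Tcrg-C2 in 26.2% of cases and in Tcrg-C4 in none, so counts of Tcrg-C1 and Tcrg-C2 are uncertain to that extent and those of Tcrg-C4 less so. No stretch of 150 bases of that exon was shared with either gene.

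Tcrg-C1 was highest in γδ T-like cells, at 2156 CPM in NW and 1641 CPM in ABX, with a UMI in 90.4 and 84.7% of cells. ILC2-like cells came next, at 269 CPM (250 to 289) and 315 CPM (297 to 333), with a UMI in 40.0 and 42.8% of cells. The CD3+ NK cluster and CD8 T-like cells had between 89.8 and 114 CPM. NK-like cells, at 13.4 and 16.9 CPM, lay near the 11.1 and 12.6 CPM of macrophage-like cells.

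Tcrg-C4 RNA, from the gene whose counts are least affected by shared sequence, was present in both ILC2-like and γδ T-like cells. It stood at 276 CPM (256 to 296) in NW and 273 CPM (257 to 291) in ABX in ILC2-like cells, and at 320 and 265 CPM in γδ T-like cells. Within the γδ T-like class it was higher in cells with a Trdc UMI, at 412 CPM (369 to 458) and 397 CPM (354 to 445), than in cells without Trdc, at 106 and 107 CPM. UMIs were present in 43.8 and 41.6% of ILC2-like cells, while macrophage-like cells had 4.24 and 6.43 CPM. Tcrg-C2 was the exception. Its level was 767 and 687 CPM in γδ T-like cells and between 101 and 147 CPM in CD8 T-like cells and the CD3+ NK cluster, but 7.63 and 10.2 CPM in ILC2-like cells, near the 5.34 and 5.12 CPM of macrophage-like cells.

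Within the γ UMIs of a class, this gave 3 patterns. ILC2-like cells divided them between Tcrg-C1 (48.7 and 52.6%) and Tcrg-C4 (49.9 and 45.7%), with 1.38 and 1.70% for Tcrg-C2. γδ T-like cells had 66.5 and 63.3% Tcrg-C1, 23.7 and 26.5% Tcrg-C2 and 9.86 and 10.2% Tcrg-C4. In CD4 T-like cells, whose γ level was low, Tcrg-C2 took 67.8% in NW and 45.5% in ABX. The transcripts are 924, 914 and 985 bases long for Tcrg-C1, Tcrg-C2 and Tcrg-C4, and these are again shares of UMIs. Among γδ T-like cells with at least 3 Tcrg-C UMIs, 161 of 262 in NW (61.5%) and 197 of 339 in ABX (58.1%) held UMIs of both Tcrg-C1 and Tcrg-C2, the pair with shared stretches.

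Trdc, the constant gene of the δ chain (chr14:54142851-54148868, plus strand, 71.7 kb before Trac), was highest in γδ T-like cells and differed there between the libraries. Its level was 2688 CPM (2595 to 2783) in NW and 1165 CPM (1109 to 1223) in ABX, a ratio of 0.433 (0.408 to 0.460). A Trdc UMI was found in 72.9% of these cells in NW and 56% in ABX, or 67.2 and 46.8% at 1000 UMIs per cell. The CD3+ NK cluster followed with 268 and 192 CPM, and CD8 T-like cells had 126 and 142 CPM. NK-like cells had 134 CPM (113 to 158) and 128 CPM (109 to 150) without CD3 RNA, a ratio of 0.954 (0.753 to 1.21), and a UMI in 33.6 and 27.7% of cells. The background was 8.23 and 9.02 CPM and 2.65 and 2.05% of cells in macrophage-like cells, and 17.3 and 13.2 CPM in B cell-like cells. ILC2-like cells, at 10.2 and 8.29 CPM, did not exceed it. Above the background, Trdc RNA was thus present in NK-like cells and Tcrg-C1 and Tcrg-C4 RNA in ILC2-like cells, while Trbc1 and Trbc2 RNA were present in both. The division was not complete. Tcrg-C4 in NK-like cells was low, at 11.5 and 16.0 CPM (12 and 19 UMIs), but above the 4.24 and 6.43 CPM of macrophage-like cells.

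Trdv4, a δ variable segment that lies 67.3 kb before Trdc (chr14:54074905-54075515, plus strand), was high in γδ T-like cells, at 292 CPM (262 to 325) in NW and 107 CPM (90.2 to 125) in ABX. It was seen in 49.7% of them in NW and 21.6% in ABX. NK-like cells had 16.3 and 12.6 CPM (5.36 and 3.92% of cells) and ILC2-like cells 11.6 and 15.8 CPM (4.55 and 4.82%). Macrophage-like cells had 0.798 and 0.296 CPM, so the background of this segment was lower than that of the constant genes. In ILC2-like cells Trdv4 made up 32 of the 60 UMIs of Trdv4 and Trdc together in NW (53.3%) and 59 of 90 in ABX (65.6%), against 9.81 and 8.39% in γδ T-like cells and 10.8 and 8.98% in NK-like cells. The transcripts are 444 bases (Trdv4) and 3865 bases (Trdc) long, so these shares are not levels per length.

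The γδ T-like class held cells of 2 kinds by their δ RNA. In NW 213 cells had a Trdc UMI and 79 had none, and in ABX 238 had 1 and 187 had none. Cells without Trdc carried Trac in 84.8% (NW) and 67.4% (ABX), and cells with Trdc in 22.5 and 13%. A UMI of Tcrg-C1, Tcrg-C2 or Tcrg-C4 was also seen in 82.3 and 84.5% of the cells without Trdc. The summed level there was 1266 and 1285 CPM, against 111 and 162 CPM in CD4 T-like cells. The median TCRβ antibody count was 31 and 33 UMIs in cells without Trdc and 9 and 6 UMIs in cells with it. Within the cells with Trdc, chosen here by the gene itself, the ABX to NW ratio was 0.559 (0.526 to 0.594) for Trdc and 0.466 (0.381 to 0.567) for Trdv4. The γ genes were closer to 1, at 0.885 for Tcrg-C1, 0.932 for Tcrg-C2 and 0.965 for Tcrg-C4. The lower values were not confined to the δ genes. Trac had a ratio of 0.642 (0.462 to 0.885) and Trbc1 of 0.699 (0.543 to 0.896), while Trbc2 had 0.947 (0.827 to 1.09). The median number of Trdc UMIs in a cell with Trdc was 13 in NW and 5 in ABX, and Trdv4 was seen in 67.6% of these cells in NW and 37.8% in ABX. In cells with both Trdc and Trdv4 UMIs the Trdc ratio was 0.627 (0.578 to 0.680), and that of Trdv4 was 0.846 (0.693 to 1.03). Among the αβ genes of these cells Trbc1 had 0.473 (0.302 to 0.719), Trac 0.836 (0.536 to 1.28) and Trbc2 0.851 (0.691 to 1.04).

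Cells of the γδ T-like class with a Trdv4 UMI shared other features. Trdc was found in 99.3 and 97.8% of them and Tcrg-C1 in 99.3 and 98.9%. Cells of the class without Trdv4 were a mixture, with Trdc in 46.9 and 44.4% and Trac in 55.1 and 43.2%. The contrasts that follow were not made within cells with Trdc, so they do not compare γδ T cells alone. The γ variable segment Tcrg-V6 was seen in 24.8 and 16.3%, against 2.72 and 5.41% of the cells of the class without Trdv4. Tcrg-V1 was seen in 11 and 10.9% against 4.08 and 4.80%, and Trgv2, the most frequent, in 35.9 and 38% against 31.3 and 29.1%. Cd163l1, a scavenger receptor gene that had served to name the class, was present in 98.6 and 98.9% of cells with Trdv4 and in 40.1 and 43.2% of cells without it.

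Taken cell by cell, NK-like and ILC2-like cells, from which cells with CD3 RNA had been split off, held β without α. At least 1 Trbc UMI and no Trac UMI was found in 70% of NK-like cells in NW (64.3 to 75.3%) and 59.9% in ABX (54.4 to 65.3%), and in 68.1% (64.4 to 71.7%) and 66.0% (63.1 to 68.9%) of ILC2-like cells. γδ T-like cells, which hold cells with and without Trdc RNA, had 51.0 and 50.8%. The same combination was found in 11.3 and 10.6% of CD4 T-like cells, 10.8 and 11.3% of macrophage-like cells and 6.42 and 10.1% of B cell-like cells. Both α and β RNA were found in 81.0 and 82.7% of CD4 T-like cells, but in 2.50 and 5.42% of NK-like and 1.88 and 1.61% of ILC2-like cells, where macrophage-like cells had 1.66 and 2.67%. When at least 2 Trbc UMIs were required, the share of ILC2-like cells with β and no α was 49.6% in NW and 42% in ABX.

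The γ and δ genes divided between NK-like and ILC2-like cells. γ without δ was found in 62.2 and 63.3% of ILC2-like cells and in 2.50 and 6.02% of NK-like cells, with 4.94 and 5.71% in macrophage-like cells. δ without γ was found in 31.8 and 26.2% of NK-like cells and in 2.04 and 0.755% of ILC2-like cells. γ with δ was found in 72.6 and 55.1% of γδ T-like cells and in at most 1.79% of NK-like and ILC2-like cells. UMIs of at least 1 αβ and 1 γδ constant gene were seen together in 85.6 and 81.4% of γδ T-like cells, 50.4 and 46.2% of ILC2-like cells and 14.3 and 20.2% of CD4 T-like cells. No constant gene was seen in 13.8 and 12.2% of ILC2-like cells and 18.2 and 22.9% of NK-like cells, against 79.0 and 78.7% of macrophage-like cells.

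**Figure D3:**
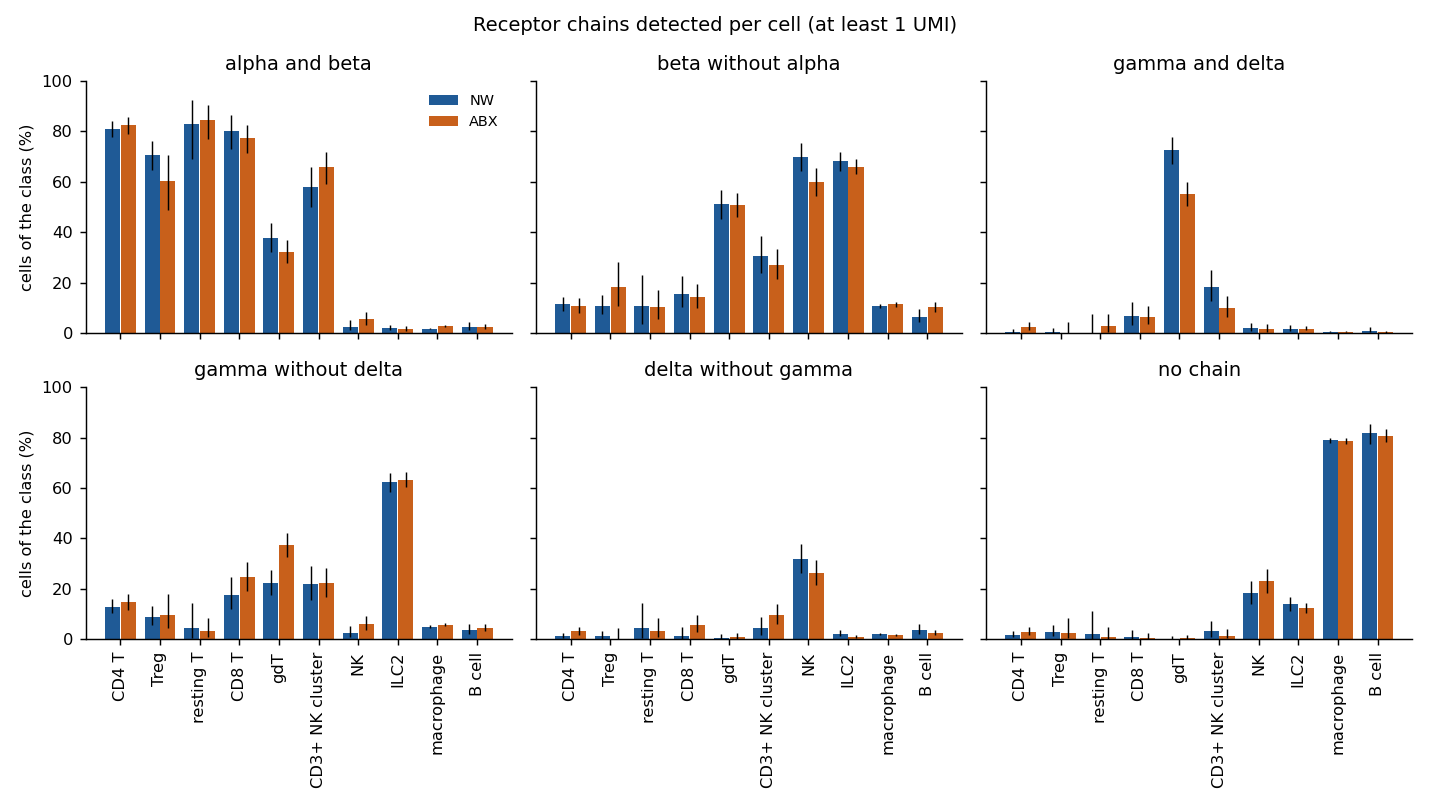
Percent of cells of each class with UMIs of α and β, of β without α, of γ and δ, of γ without δ, of δ without γ and of no chain, for both libraries, with exact 95% binomial intervals. NK-like and ILC2-like cells stand at 59.9 to 70% for β without α, and δ without γ is seen mainly in NK-like cells while γ without δ is seen mainly in ILC2-like cells.

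Variable and joining segments differed from the constant genes. Over 26 β variable segments there were 140 UMIs in NW and 133 in ABX in CD4 T-like cells (61.1 and 71.6 CPM), and 41 and 58 in CD8 T-like cells (73.6 and 62.1 CPM). ILC2-like cells had 1 and 0 UMIs and NK-like cells 0 and 1. A floor of 3 UMIs, set for low counts, is 0.802 CPM in ILC2-like cells of ABX and 2.88 CPM in NK-like cells of NW. The β joining segments were higher in NK-like than in CD4 T-like cells of both libraries, with 39.3 and 41.3 CPM in NK-like cells (41 and 49 UMIs), 20.7 and 13.9 CPM in ILC2-like cells and 9.17 and 18.8 CPM in CD4 T-like cells. Most of these UMIs in NK-like cells came from Trbj1-2 (21 and 22) and Trbj1-1 (10 and 18). The α variable segments gave 3 and 4 UMIs in ILC2-like cells and 0 and 1 in NK-like cells.

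Among δ and γ variable segments, Trdv2-2 was the leading segment of NK-like cells, with 32 and 43 UMIs in 10.4 and 11.1% of cells. In γδ T-like cells the γ variable segments summed to 258 and 254 CPM, led by Trgv2 (205 and 244 UMIs), Tcrg-V6 (51 and 42), Tcrg-V1 (29 and 33), Tcrg-V4 (12 and 15) and Tcrg-V5 (7 and 11). In ILC2-like cells they summed to 11.3 and 20.6 CPM, with Tcrg-V5 at 8 and 27 UMIs, Trgv2 at 7 and 14 and Tcrg-V6 at 6 and 13. NK-like cells had 1 and 2 UMIs of these segments. In CD4 T-like cells the segments with most UMIs were Trgv2 (52 and 44), Trbv2 (28 and 17), Trbv12-2 (18 and 17), Trbv19 (10 and 17) and Trbv13-2 (13 and 13).

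The TCRβ antibody had higher median counts in αβ T cell classes than in NK-like and ILC2-like cells. The median antibody count per cell was 36 UMIs in NW (quartiles 17 and 98.5) and 23 UMIs in ABX (11 and 50) in CD4 T-like cells, 48 and 38 in Treg-like cells, and 37 and 33 in CD8 T-like cells. It was 15 and 12 in the CD3+ NK cluster and 11 and 10 in γδ T-like cells. NK-like cells (9 and 8) and ILC2-like cells (9 and 7) were near B cell-like cells (11 and 9), which carry no TCR and were taken as background. Macrophage-like cells had 18 and 19.

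A cell was called above background when it exceeded the 99th percentile of B cell-like cells of its library, 122 UMIs in NW and 152 UMIs in ABX. This held for 19.0% of CD4 T-like cells in NW and 5.51% in ABX, for 22.3 and 20.5% of Treg-like cells and for 15.0 and 12.6% of CD8 T-like cells. It held for 0.942 and 0.0944% of ILC2-like cells and 1.43 and 0.904% of NK-like cells. Macrophage-like cells, which have no TCR, had 6.12 and 5.64%, so the share of CD4 T-like cells in ABX did not exceed theirs. With the 95th percentile as the limit the shares in CD4 T-like cells were 48.7 and 28.4%. ILC2-like cells with Trbc and without Trac RNA had median counts of 9 and 7 UMIs, and those without either had 10 and 8. The median was thus not higher in ILC2-like cells with Trbc RNA. Endothelial-like cells, which have no TCR, had medians of 242 and 234 UMIs, so a high count of this antibody did not by itself mark a T cell.

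**Figure D4:**
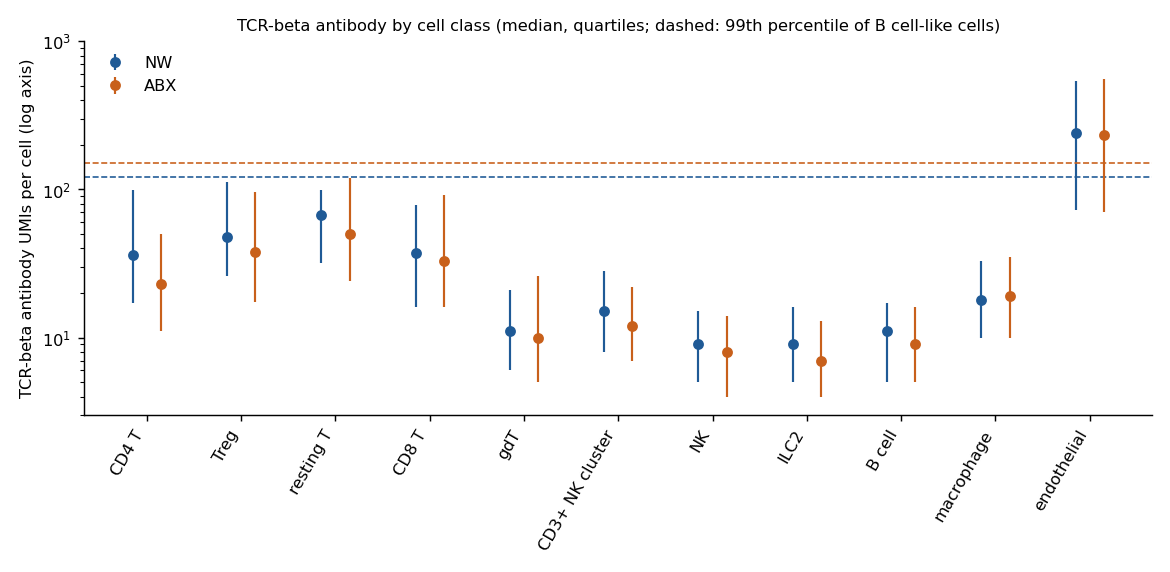
TCRβ antibody UMIs per cell by class and library, with the median as a point and the quartiles as a bar, beside the 99th percentile of B cell-like cells of each library as a dashed line. Medians of NK-like and ILC2-like cells, 7 to 9 UMIs, lie at the level of B cell-like cells and below the 23 to 48 UMIs of CD4 T-like, CD8 T-like and Treg-like cells.

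The comparison of ABX with NW asks whether antibiotics were accompanied by other levels of these genes within a class. A gene was counted as past the fold when its CPM differed by at least 1.5-fold and the interval of the ratio excluded 1, among genes whose UMIs in that class summed to 50 or more across NW and ABX. In γδ T-like cells all 8 genes reached 50 UMIs and 2 of them, Trdc and Trdv4, were past the fold, where 6.52% of 6901 genes were past it in either direction. Both were lower in ABX. The other genes of the class were closer to 1, with ratios of 0.761 (0.719 to 0.806) for Tcrg-C1, 0.827 (0.714 to 0.957) for Tcrg-C4, 0.895 (0.816 to 0.981) for Tcrg-C2 and 1.03 for Trac. Trbc2 was higher in ABX, with a ratio of 1.21 (1.1 to 1.33). The share of cells without Trdc in this class, given above, was larger in ABX.

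In CD4 T-like cells 3 of the 7 genes that reached 50 UMIs were past the fold, where 7.50% of 8216 genes were past it in either direction. All 3 were higher in ABX. They were the γδ genes Trdc, at 20.1 and 43.1 CPM, Tcrg-C1, at 22.7 and 57.6 CPM, and Tcrg-C4, at 13.1 and 30.7 CPM. Their ratios were 2.14 (1.47 to 3.15), 2.54 (1.8 to 3.60) and 2.34 (1.48 to 3.77). They rested on few cells, since the 46 and 80 Trdc UMIs came from 10 cells in NW (1.68%) and 27 cells in ABX (5.51%), and the NW share lay below the 2.65% of macrophage-like cells. The Trdc ratio depended on the clustering and was 1.27 (0.845 to 1.90) with 50 principal components and 3.89 with RNA alone, and that of Tcrg-C1 was 1.42 (0.977 to 2.07) with antibody and gene gates in place of clusters. The αβ genes, which are the receptor genes of this class, had ratios of 1.12 (1.05 to 1.19) for Trac, 1.32 (1.17 to 1.49) for Trbc1 and 1.22 (1.15 to 1.30) for Trbc2. The Trac ratio turned to 0.845 (0.736 to 0.970) when cells with a UMI of C1qa, C1qb, Cd79a, Cd79b or Lyz2 were left out. The TCRβ antibody had the lower median in ABX, in raw counts that were not scaled to depth. That was not particular to this class. The median was lower in ABX in each T, NK and ILC2 class, ILC2-like cells included (9 and 7 UMIs). It was also lower in B cell-like cells (11 and 9), while macrophage-like cells had 18 and 19.

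In CD8 T-like cells Tcrg-C4 was the 1 gene of 7 past the fold, where 6.60% of 4954 genes were past it in either direction. Its level was 73.6 CPM in NW (41 UMIs) and 32.1 CPM in ABX (30 UMIs), a ratio of 0.436 (0.263 to 0.716). In the CD3+ NK cluster Tcrg-C4 was again the 1 gene of 7, with 115 and 61.3 CPM and a ratio of 0.533 (0.369 to 0.763), where 7.66% of 5093 genes were past the fold. At clustering resolution 1.0 that ratio was 0.779 (0.575 to 1.06), and with gates it was 0.760 (0.459 to 1.27). In NK-like cells none of 3 genes, in ILC2-like cells none of 8 and in Treg-like cells none of 4 was past the fold, where 6.24, 7.62 and 10.9% of genes were. Within those limits Trbc1 in NK-like cells had a ratio of 0.772 (0.657 to 0.907) and Tcrg-C1 in ILC2-like cells 1.17 (1.07 to 1.28). Trdc in Treg-like cells, with 32 UMIs in NW and 0 in ABX, did not reach 50 UMIs. Those 32 UMIs came from 4 of 269 cells, and ABX held only 83 Treg-like cells.

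The background moved as well. In macrophage-like cells Trac (12.4 and 24.0 CPM, ratio 1.95), Trbc1 (1.54), Trbc2 (1.62) and Tcrg-C4 (1.52) were past the fold and higher in ABX, where 10.6% of genes were past it in either direction. In B cell-like cells Trbc2 had a ratio of 1.55, where 8.31% of genes were past the fold. The part of free RNA in the ratios of the low genes of CD4 T-like cells was not tested. The macrophage-like values of these genes were 11.1 and 12.6 CPM for Tcrg-C1, 8.23 and 9.02 CPM for Trdc and 4.24 and 6.43 CPM for Tcrg-C4.

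**Figure D5:**
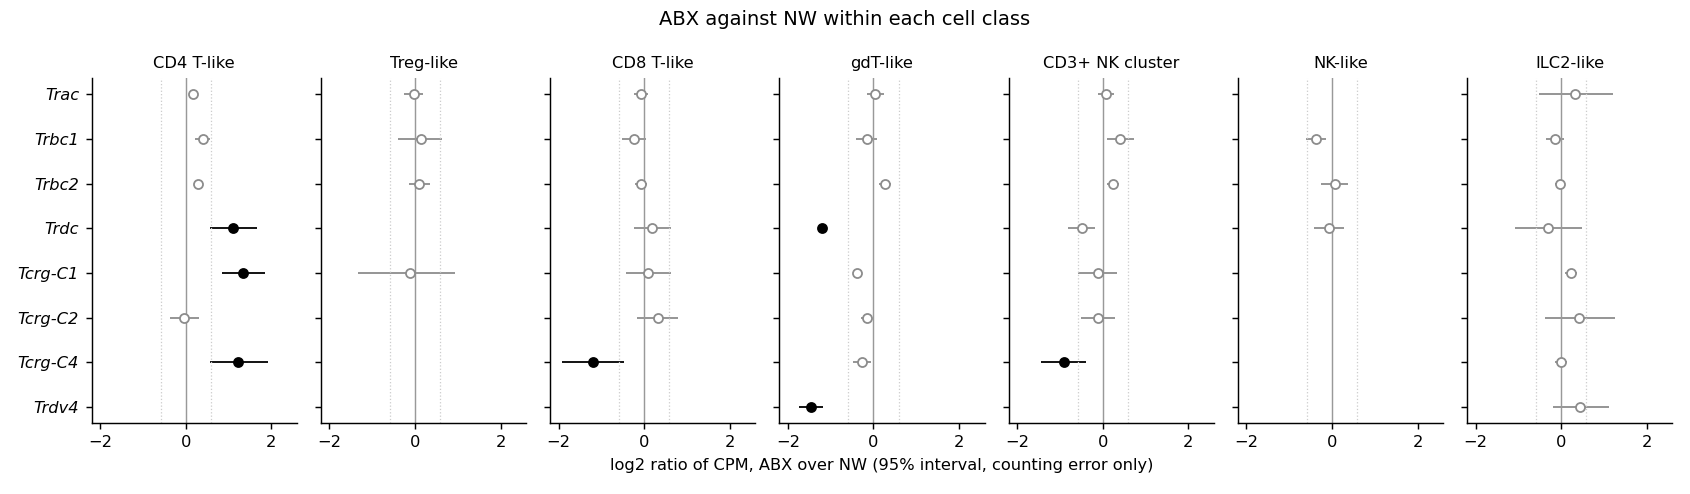
ABX to NW ratio of each gene by class, on a log2 axis, with exact 95% intervals and dotted lines at 1.5-fold in either direction and filled points for genes past the fold (genes under 50 UMIs are not drawn). Trdc and Trdv4 in γδ T-like cells lie below the lower line, and Trdc, Tcrg-C1 and Tcrg-C4 in CD4 T-like cells lie above the upper line.

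The other genes of the pathway were taken from lists of its parts. Of the receptor complex (Cd3e, Cd3d, Cd3g, Cd247 and Fcer1g) none of 5 was past the fold in γδ T-like, CD4 T-like or CD8 T-like cells or in the CD3+ NK cluster, with median log2 ratios of -0.06, 0.10, -0.19 and -0.12. Over all genes tested in these classes, in the same order, 6.52, 7.50, 6.60 and 7.66% were past it. In γδ T-like cells, where Trdc was lower in ABX, Cd3e stood at 1050 and 1005 CPM, Cd3d at 296 and 295 CPM and Cd3g at 793 and 622 CPM. In Treg-like cells, against 10.9% of all genes tested, 1 of 5, the signalling ζ chain Cd247, was lower in ABX (ratio 0.645, 0.421 to 0.956). In ILC2-like cells, against 7.62%, 1 of the 2 tested, Fcer1g, an adaptor of Fc receptors, was lower (0.570).

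Of 20 proximal signalling genes tested in γδ T-like cells 2 were higher and 2 lower in ABX, where 6.52% of all genes tested were past the fold, and the median log2 ratio was 0.00 against 0.03 over all genes of the class. Lck, the kinase that phosphorylates the CD3 chains, was at 137 and 236 CPM (ratio 1.72), and the adaptor Grap2 had a ratio of 1.52. The kinase Zap70 was at 314 and 180 CPM (0.574) and the phosphatase Ptpn6 at 207 and 81.4 CPM (0.394). Of 3 co-receptor genes tested there, Cd2 (1.51) and Cd28 (1.53) were higher. Of 15 lineage factors Tox (0.453) and Sox13 (0.606), a factor of γδ T cell development, were lower, and Sox13 had also served to name the class.

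In CD4 T-like cells, where 7.50% of all genes tested were past the fold, 1 of 23 signalling genes, the kinase Txk (21.8 and 56.0 CPM, ratio 2.56), was higher, as were 1 of 6 co-receptors, Cd8b1 (1.85), and 2 of 13 lineage factors, Tox (2.09) and Id3 (2.35). Of the same 13 factors Gata3, the factor of type 2 helper cells, was lower at 455 and 264 CPM (0.579). In Treg-like cells, of which ABX held only 83, 10.9% of all genes were past the fold. There 1 of 5 co-receptors, Cd28 (1.51), was higher, and 4 of 19 signalling genes were past the fold, among them Grap2 (1.63) and Tespa1 (2.08), which were higher, and Ptpn6 (0.556), which was lower. Of 12 lineage factors Tcf7 (2.02) and Tcf12 (2.42) were higher and Tox (0.464) was lower. In CD8 T-like cells, against 6.60% of all genes, 1 of 22 signalling genes, the adaptor Trat1 (0.640), was past the fold. In the CD3+ NK cluster, against 7.66%, it was 1 of 11 lineage factors, Maf (0.604). In NK-like cells, against 6.24%, it was 1 of 12 lineage factors, Bcl11b (3.85), a factor of early T cell development. In ILC2-like cells, against 7.62%, 2 of 20 signalling genes were past the fold, with Txk (1.61) higher and the kinase Syk (0.553) lower, and 1 of 13 lineage factors, Lef1 (1.72), was higher. None of the 4 recombination genes (Rag1, Rag2, Dntt and Ptcra) reached 50 UMIs in any of these classes.

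Genes with a pattern like that of each constant gene were sought over 16 points, 8 classes in each of the 2 libraries, by Pearson's r of log2(CPM + 1) among 8847 genes. The points share libraries and the classes share RNA of other cell types, so r is a description. Trac was most like Cd5 (0.98), Cd3d and Cd3e (both 0.97), where the CD3 split itself put both CD3 genes at 0 in NK-like and ILC2-like cells. Trbc2 was most like Cd3d (0.91), Acp5 (0.91) and Fas (0.90), and Trbc1 most like Lef1 (0.92), Ablim1 (0.91) and Socs3 (0.90). Between Trbc1 and Trbc2 themselves r was 0.38, while between Trac and Trbc2 it was 0.88. Tcrg-C1 was most like Tmem176b (0.90), Igf1r (0.90) and Ret (0.88), and Tcrg-C4 most like Cd93 (0.90), Tfdp2 and Cnr2 (both 0.88). Tcrg-C2 had lower values, with Gbp8 (0.88), Lpar6 (0.85) and Smim27 (0.83), but reached 0.95 with the variable segment Trgv2. Trdc was most like Appl2, Mapk6 (both 0.86) and Fntb (0.85), and Trdv4 most like Irak2 (0.90), Ffar2 (0.89) and Crot (0.88).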

How the data were processed

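CD45+ cells of 1 NW and 1 ABX library were analysed. The authors deposited 1 table per library of raw UMI counts per cell for genes and 10 antibodies, made with the BD Rhapsody whole transcriptome pipeline on mm10 (GRCm38), and the submitters' processing notes name R 3.6.0 and Seurat 3.0.1. The deposited counts summed to 79855126 gene UMIs in 17662 NW barcodes and 64801767 in 17785 ABX barcodes, of which 75214427 and 60770758 were in the cells kept.

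Cells were kept with at least 500 gene UMIs, 200 genes and at most 25% mitochondrial UMIs. Both libraries were clustered together in Seurat 5.3.0 (R 4.3.3) at resolution 0.6 on 30 principal components of 2000 variable genes and on 7 antibodies. All TCR segments and the TCRβ, CD3 and NK-1.1 antibodies were left out. T, NK and ILC clusters were clustered again and named from marker lists. Their cells were then split by a UMI of Cd3d, Cd3e or Cd3g, a step added after the clusters were seen. Doublets were scored with Scrublet (scanpy 1.11.5), which predicted 344 NW cells (2.76%) and 1 ABX cell (0.00786%). It had thus not worked in ABX, no cell was removed, and the 5% with the highest scores were left out as an alternative.

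Exact Poisson and binomial intervals came from scipy 1.17.1 under Python 3.11.15. The calculations were tested on simulated counts drawn from those same Poisson and binomial models. That test checks the code and not how well the intervals cover in these data. Ratios were formed in classes with at least 50 cells in each library. Named were all 8 genes, the list genes past 1.5-fold (up to 5 a list), the 5 segments with most UMIs in a class and the 3 genes most like each. Segments whose names start with Trgv or Trgj were counted with the γ segments, as was decided after the tables were read. Some sequences and genes are not reported here. The genes and lists were chosen with earlier results of these data known. Alternatives changed resolution, components, antibodies, gates, depth, filters and limits.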

Additional observations from a re-analysis of the deposited data

Results flagged for a closer look

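ABX to NW ratios pointed in opposite directions between classes for a pair of genes. Trdc had a ratio of 2.14 in CD4 T-like cells and 0.433 in γδ T-like cells, and Tcrg-C4 had 2.34 in CD4 T-like cells, 0.436 in CD8 T-like cells and 0.533 in the CD3+ NK cluster. With 1 library per condition the difference between these ratios was not tested.

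Tcrg-C3, a γ constant gene outside the 8 described, was found in γδ T-like cells at 6.72 CPM in NW (2.90 to 13.2, 8 UMIs) and 11.5 CPM in ABX (6.59 to 18.7, 16 UMIs), above the 0.0275 and 0.0846 CPM of macrophage-like cells. Of its stretches of 50 bases 25.7% were also in Tcrg-C1, and the part of such shared sequence in its counts was not tested.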

How the results depend on the processing

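No paired analysis was possible because each condition had 1 library, and for the same reason no replicate could be left out. The 7 ratios past the fold stayed on their side of 1 under each alternative that gave them a value. Ratios nearer 1 crossed it under some, such as Trac in CD4 T-like cells (1.12, lowest 0.845), Trac in CD8 T-like cells (0.954, highest 1.19), Tcrg-C1 in Treg-like cells (0.922, highest 4) and Tcrg-C2 in the CD3+ NK cluster (0.931, highest 1.71), and the order of NW and ABX for Trac in ILC2-like cells turned with gates. Over 87 results, 109 values that answer a comparison stayed within their counting interval and 44 moved beyond it, as did 189 of the values of single genes, where 657 stayed. The Trdc ratio of γδ T-like cells, 0.433, was 0.464 with 50 principal components, 0.540 with antibody and gene gates, 0.461 without the CD3 split, 0.559 in cells with Trdc and 0.627 in cells with Trdc and Trdv4, and the Trdv4 ratio of 0.365 was 0.471 with gates, 0.466 in cells with Trdc and 0.846 in cells with both. The 7 pairs of gene and class past the fold became 0 without cells that held UMIs of other lineages, where too few cells or UMIs were left to form the ratio of any of these pairs, 11 with RNA alone and 2 at 200 UMIs or more. Trac in ILC2-like cells was 12.2 CPM (NW) and 3.76 CPM (ABX) with gates, 31.4 and 45.7 CPM without the CD3 split, 5.32 CPM in ABX with 50 components and 5.56 CPM there without cells with other T cell genes. The Trbc1 share in NK-like cells of NW was 73.7% without cells with other lineages' UMIs, 62.9% at resolution 1.0, 60.5% with RNA alone, 62.5% with gates and 37.7% without the CD3 split, and that of ABX was 52.7, 54.9, 55 and 31.7% under the last 4. The share of γδ T-like cells with Trdc was 78.9 and 61.1% with 50 components, 98.3 and 92.0% with gates, 67.2 and 46.8% when thinned and 63.5 and 49.5% without the CD3 split. ILC2-like cells with β and no α made up 73.3% (NW) with RNA alone, 69.3% (ABX) with gates, 49.6 and 42% at 2 UMIs and 59.7% (NW) without cells with other T cell genes. CD4 T-like cells above the antibody limit were 22.6% (NW) with RNA alone, 1.33% (ABX) without cells with other lineages' UMIs, 9.54% (ABX) with gates and 48.7 and 28.4% with the 95th percentile. The cause of these differences was not tested. Sums of few UMIs, such as those of the γδ genes in CD4 T-like cells, are limited by depth, and the spread between mice is unknown.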
